A study of Mus musculus with 12 samples.

Results

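The 9 genes described here encode sugar transporters of the kidney: the sodium-coupled carriers Slc5a1 (SGLT1), Slc5a2 (SGLT2) and Slc5a10 (SGLT5), and the facilitative carriers Slc2a1 (GLUT1), Slc2a2 (GLUT2), Slc2a3 (GLUT3), Slc2a4 (GLUT4), Slc2a5 (GLUT5) and Slc2a9 (GLUT9). They were chosen by name, with earlier results of these data known. Each had 1 probe set with a single gene symbol among the 19938 genes tested. Whole-kidney RNA of mice aged 3 weeks was hybridised to 12 arrays in 4 groups of 3. PpargΔ/Δ mice, named for a deletion of both copies of Pparg, whose product PPARγ is a nuclear receptor needed for fat cell formation, were set against control mice of the same mixed C57BL6/SV129 background, called mixed controls below. AZIP mice, on the FVB background, were set against FVB control mice. As background, the A-ZIP protein blocks the transcription factors that fat cells need and is driven by a fat cell promoter, and mice of both kinds are known for lacking fat and for insulin resistance. The sources used here do not give blood glucose or how the PpargΔ/Δ allele was made. The RNA of 3 mice was pooled for each array, which makes the pool the replicate (n = 3 for every group), and p-values measure the spread between pools, not between single mice.

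Glucose is filtered freely in the glomerulus and taken back by the proximal tubule. SGLT2 in the early tubule takes up most of it with sodium, SGLT1 in the late straight segment (S3) takes up what is left, and GLUT2 and GLUT1 let it out toward the blood. SGLT5 carries mannose and fructose, GLUT5 carries fructose, GLUT9 carries urate, GLUT4 is the insulin-regulated carrier of fat and muscle, and GLUT3 is known from neurons and white blood cells.

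Levels are log2 values made by the authors with RMA, which corrects background, normalizes arrays and summarises the probes of a gene. Such values are compared here between groups for 1 gene, not between genes, and they carry no call of detection above background. Differences are mutant minus control on the log2 scale, with the SE from limma fitted to all 19938 genes on all 12 arrays, and a change was called at an adjusted p under 0.05. Mean correlation between arrays of a group was 0.997 to 0.998. The Pparg probe set read 8.0, 8.19 and 8.01 in PpargΔ/Δ kidneys, against 7.90, 7.97 and 8.02 in mixed controls. It read 8.23, 8.17 and 8.16 in AZIP kidneys, against 7.96, 7.94 and 8.0 in FVB controls. Its difference did not pass in PpargΔ/Δ kidneys (0.11 ± 0.06, limma adjusted p = 0.339) or in AZIP kidneys (0.22 ± 0.06, limma adjusted p = 0.0736). The probe set is not known to lie in the deleted part, so it is no check of the genotype, which is taken from the labels. Xist lay between 12.18 and 12.34 and the Y-linked genes Kdm5d, Uty and Eif2s3y between 3.07 and 4.85 on all 12 arrays, so none of these set a group apart. All 10 early proximal tubule markers and all 9 thick limb and distal tubule markers of the kidney were measured, with array means of 12.11 to 12.38 and 11.34 to 11.47.

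Of the 9 transporters 3 passed the threshold in PpargΔ/Δ kidneys, 1 higher and 2 lower, against 5.29% of all genes tested (2.67% higher and 2.62% lower). In AZIP kidneys 2 passed, 1 higher and 1 lower, against 2.43% of all genes (1.3% higher and 1.13% lower). Slc2a1 was higher and Slc2a5 lower in both mutants, and Slc5a1 was lower in PpargΔ/Δ kidneys. All of these were changes of under 1.5-fold. At an unadjusted p under 0.05 stood 4069 of all 19938 genes in PpargΔ/Δ and 3267 in AZIP kidneys. The shares and counts over all genes given here are the base for the gene and marker lists below. Members and lists were chosen with earlier results of these data known, so setting them beside these shares tests no excess. The median difference over the 9 genes was -0.08 in PpargΔ/Δ and 0.03 in AZIP kidneys, beside -0.01 and 0.00 over all genes. The 3 mutant and the 3 control arrays did not overlap for 5 of the 9 genes in the PpargΔ/Δ comparison, against 26.1% of all genes. In the AZIP comparison they did not overlap for 3 of 9, against 22.5%.

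**Figure D1:**
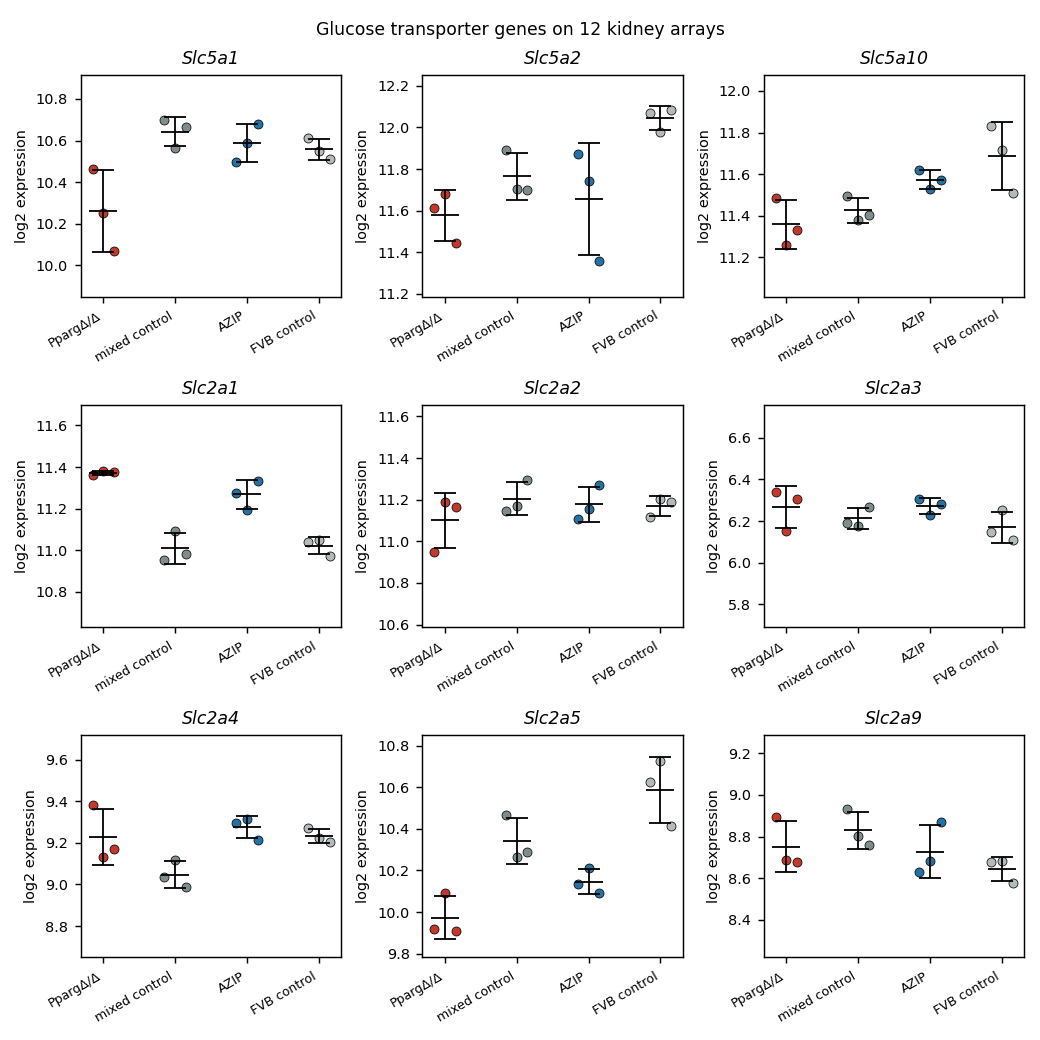
Log2 expression of the 9 transporter genes in each of the 12 arrays, 1 panel per gene with the same height of scale. Points are arrays (pools of 3 mice), the long dash is the group mean and the bars are 1 SD. Slc2a1 stands higher and Slc2a5 lower in both mutants than in their controls, and Slc5a1 is lowest in PpargΔ/Δ kidneys.

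The stretches of 250 bases before the RefSeq start of the 3 genes that changed are shown because they are the nearest regulatory sequence of the genes that carry the result. They come from RefSeq on build GRCm38.p6, 5′ to 3′ along the gene, ending 1 base before the start. Capitals mark matches on either strand to any of the motifs searched: the GC box with the letters GGGCGG, the E-box with the letters CACGTG, the hypoxia response core with the letters ACGTG (which lies inside the E-box), the HNF1 half-site with the letters GTTAAT, the nuclear receptor half-site with the letters AGGTCA, the FoxO motif with the letters GTAAACA, the D-box with the letters TTATGTAA and the TATA box with the letters TATAAA.
Slc2a1, chr4:119108495-119108744, + strand: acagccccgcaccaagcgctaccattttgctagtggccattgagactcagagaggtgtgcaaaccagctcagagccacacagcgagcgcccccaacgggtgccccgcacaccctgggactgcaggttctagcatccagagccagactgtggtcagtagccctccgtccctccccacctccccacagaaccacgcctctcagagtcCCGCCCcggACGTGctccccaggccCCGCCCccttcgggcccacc
Slc2a5, chr4:150119094-150119343, + strand: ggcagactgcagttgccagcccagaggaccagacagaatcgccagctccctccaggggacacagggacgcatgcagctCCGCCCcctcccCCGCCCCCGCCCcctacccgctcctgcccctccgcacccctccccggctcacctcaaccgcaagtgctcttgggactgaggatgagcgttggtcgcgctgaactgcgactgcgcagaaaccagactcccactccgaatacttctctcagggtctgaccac
Slc5a1, chr5:33103969-33104218, + strand: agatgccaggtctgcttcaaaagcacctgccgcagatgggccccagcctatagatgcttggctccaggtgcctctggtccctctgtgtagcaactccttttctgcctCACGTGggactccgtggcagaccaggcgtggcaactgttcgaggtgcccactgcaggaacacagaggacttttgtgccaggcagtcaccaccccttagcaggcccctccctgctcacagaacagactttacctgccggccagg

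The Slc2a1 stretch held 2 GC boxes, at -45 to -40 and -20 to -15, with 1 ACGTG core between them at -36 to -32. The Slc2a5 stretch held 3 GC boxes between -172 and -149, of which the last 2 lie end to end. Both are rich in G and C, 66.4% each, against a median of 52.4% over 32851 RefSeq windows of the same length. The Slc5a1 stretch held no GC box and 1 E-box at -143 to -138. A GC box was found in 32.7% of all windows, an ACGTG core in 16.6% and an E-box in 6.02%, and a match describes the letters only. Windows were found for 6 of the 9 members, and those of Slc2a2, Slc5a10 and Slc2a9 held neither a GC box nor an E-box. An AGGTCA half-site, the kind of letters that nuclear receptors bind, was found in those 3 genes and not in the 3 stretches printed, against 14% of all windows. Slc5a10 had 2 windows, and only the first held the half-site. Slc5a2, Slc2a3 and Slc2a4 were not matched.

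Slc5a2 encodes SGLT2, the main route of glucose reuptake and the target of the gliflozin drugs. It read 11.61, 11.68 and 11.44 in PpargΔ/Δ kidneys, against 11.89, 11.70 and 11.70 in mixed controls. The highest PpargΔ/Δ array lay just under the lowest control array, and the difference was -0.19 ± 0.11 (limma adjusted p = 0.402). In AZIP kidneys it read 11.87, 11.74 and 11.36, against 12.07, 11.98 and 12.08 in FVB controls. The AZIP arrays all lay below the FVB arrays, and the third stood well below the other two. The difference of -0.39 ± 0.11, a 1.31-fold lower mean, did not pass the correction over all genes (limma adjusted p = 0.104, unadjusted p = 0.00554). It was -0.24 (limma adjusted p = 0.223) without AZIP 3 and -0.49 (limma adjusted p = 0.0429) without AZIP 1.

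Slc5a1 encodes SGLT1, which takes up the glucose that SGLT2 leaves. It read 10.46, 10.25 and 10.07 in PpargΔ/Δ kidneys, against 10.70, 10.56 and 10.67 in mixed controls. All PpargΔ/Δ arrays were below all control arrays, and were spread more widely (SD 0.20 against 0.07). Slc5a1 was lower by 1.30-fold, a difference of -0.38 ± 0.09 (limma adjusted p = 0.0285). In AZIP kidneys Slc5a1 read 10.50, 10.59 and 10.68, against 10.61, 10.55 and 10.51 in FVB controls. Those groups overlapped, with a difference of 0.03 ± 0.09 and an interval of -0.16 to 0.22 (limma adjusted p = 0.919). Leaving out PpargΔ/Δ 2 or 3, or any mixed control array, ended the PpargΔ/Δ call, at a limma adjusted p of 0.0520 to 0.104, and without PpargΔ/Δ 1 the difference was -0.48 (limma adjusted p = 0.00615). Testing all probe sets (limma adjusted p = 0.0597) or fitting only the groups compared (limma adjusted p = 0.0879) ended it too.

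Slc5a10 encodes SGLT5, a carrier of mannose and fructose found chiefly in the kidney. It read 11.49, 11.26 and 11.33 in PpargΔ/Δ kidneys, against 11.49, 11.38 and 11.40 in mixed controls. It read 11.62, 11.53 and 11.57 in AZIP kidneys, against 11.83, 11.72 and 11.51 in FVB controls. Mutants and controls overlapped in both lines, and the differences were -0.07 ± 0.08 (limma adjusted p = 0.710) in PpargΔ/Δ and -0.11 ± 0.08 (limma adjusted p = 0.558) in AZIP kidneys.

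Slc2a1 encodes GLUT1, a carrier of the basolateral membrane of tubule cells, most abundant in the later nephron segments, and of endothelium. It read 11.36, 11.38 and 11.38 in PpargΔ/Δ kidneys, against 10.95, 11.09 and 10.98 in mixed controls. The 3 PpargΔ/Δ arrays agreed closely (SD 0.01) and lay above every other array of the study. The rise of 0.36 ± 0.05, 1.29-fold, ranked 101st of 19938 genes by p (limma adjusted p = 0.00355). In AZIP kidneys it read 11.27, 11.20 and 11.34, against 11.04, 11.05 and 10.97 in FVB controls. Again no array of one group overlapped the other, and Slc2a1 rose by 0.25 ± 0.05, 1.19-fold (limma adjusted p = 0.0343). The PpargΔ/Δ call held under each of 20 alternatives, with an adjusted p of up to 0.0214 by limma. The AZIP call was lost without any 1 of the 6 arrays of AZIP and FVB controls, and without mixed control 3, which enters only through the spread (limma adjusted p up to 0.111). It was also lost with all probe sets tested (limma adjusted p = 0.0746) and with only the groups compared in the fit (limma adjusted p = 0.0950). Its difference stayed between 0.21 and 0.28.

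Slc2a2 encodes GLUT2, the high-capacity exit route of the early proximal tubule. It read 10.95, 11.19 and 11.16 in PpargΔ/Δ kidneys, against 11.15, 11.17 and 11.30 in mixed controls. It read 11.11, 11.16 and 11.27 in AZIP kidneys, against 11.12, 11.20 and 11.19 in FVB controls. The groups overlapped in both lines. The differences were -0.10 ± 0.07 (limma adjusted p = 0.461) in PpargΔ/Δ and 0.01 ± 0.07 (limma adjusted p = 0.970) in AZIP kidneys, with intervals of -0.26 to 0.05 and -0.15 to 0.17.

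Slc2a5 encodes GLUT5, which takes up fructose on the luminal side of the S3 segment. It read 9.92, 10.09 and 9.91 in PpargΔ/Δ kidneys, against 10.47, 10.27 and 10.29 in mixed controls. All PpargΔ/Δ arrays were below all control arrays, and Slc2a5 was lower by 1.29-fold, a difference of -0.37 ± 0.08 (limma adjusted p = 0.0307). In AZIP kidneys it read 10.13, 10.21 and 10.09, against 10.62, 10.73 and 10.41 in FVB controls. The groups did not overlap, and Slc2a5 was lower by 1.36-fold, a difference of -0.44 ± 0.08 (limma adjusted p = 0.0235). Leaving out PpargΔ/Δ 1 or 3, or any mixed control array, ended the PpargΔ/Δ call, at a limma adjusted p of 0.0553 to 0.116. Leaving out AZIP 2 or 3, or FVB control 1 or 2, ended the AZIP call, at a limma adjusted p of 0.0556 to 0.10. Both calls also ended with all probe sets tested (limma adjusted p of 0.0627 in each) and with only the groups compared in the fit (limma adjusted p = 0.0514 in PpargΔ/Δ and 0.0673 in AZIP kidneys). The difference stayed at -0.31 or below in PpargΔ/Δ and at -0.37 or below in AZIP kidneys.

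In whole-kidney RNA, fewer cells of a type and less RNA per cell cannot be told apart. Late proximal tubule (S3) markers, the segment where SGLT1 and GLUT5 sit, were lower for 3 of 10 genes in PpargΔ/Δ kidneys, against 2.62% of all genes. Their array means were 9.95 to 10.20, against 10.27 to 10.54 in mixed controls. The 3 were the organic anion transporters Slc22a7 (-1.18), Slc22a13 (-0.40) and Slc22a19 (-0.84), while Cyp7b1 was at 0.30 (limma adjusted p = 0.0575). Also not called were Slc7a12 (-0.25), Slc7a13 (-0.23), Acsm3 (-0.17), Napsa (-0.08), Aadat (-0.07) and Atp11a (0.07). In AZIP kidneys 2 of 10 were lower, Slc22a7 (-1.37) and Slc7a12 (-0.49), against 1.13% of all genes. Not called there were Slc22a19 (-0.77), Acsm3 (-0.75), Slc7a13 (-0.32), Slc22a13 (-0.18), Napsa (-0.08), Atp11a (-0.05), Aadat (-0.04) and Cyp7b1 (0.09). The array means there were 10.06 to 10.36, against 10.58 to 10.75 in FVB controls. Early proximal tubule markers had 0 of 10 called by limma in either line. They had 4 and 3 of 10 at an unadjusted p under 0.05, against 4069 and 3267 of all 19938 genes. Their array means were 12.11 to 12.17 in PpargΔ/Δ, against 12.15 to 12.28 in mixed controls, and 12.19 to 12.29 in AZIP, against 12.33 to 12.38 in FVB controls. The part of these markers in the falls of Slc5a1 and Slc2a5 was not tested.

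Of markers for other cells, those of red blood cells had 1 of 4 higher in PpargΔ/Δ kidneys, Epb42 (0.34), against 2.67% of all genes. Array means were 7.12 to 7.40, against 7.0 to 7.10 in mixed controls. In AZIP kidneys 0 of those 4 were called by limma and 0 were at an unadjusted p under 0.05, with array means of 6.76 to 6.98, against 6.91 to 6.98 in FVB controls. The haemoglobin genes of that list were not analysed here. Endothelial markers had 0 of 10 called by limma in either line, with 1 and 0 at an unadjusted p under 0.05. White blood cell markers had 2 of 9 higher in PpargΔ/Δ kidneys, S100a8 (0.74) and S100a9 (0.53), against 2.67% of all genes. Not called were Lyz2 (0.83), Itgam (0.42), Cd68 (0.17), Adgre1 (0.15), Cd3e (0.00), Ptprc (-0.02) and Csf1r (-0.07). Array means of the 9 markers were 7.46 to 8.01, against 7.26 to 7.49 in mixed controls. In AZIP kidneys 0 of the 9 were called by limma, with 1 at an unadjusted p under 0.05, Csf1r (-0.33). The array means of the 9 were 6.97 to 7.42 in AZIP, against 7.11 to 7.13 in FVB controls. Thick limb and distal tubule markers had 0 of 9 called by limma in either line, with 0 at an unadjusted p under 0.05 in each. The part of any of these cells in the rise of Slc2a1 was not tested.

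Slc2a9 encodes GLUT9, the urate carrier of the tubule. It read 8.89, 8.69 and 8.68 in PpargΔ/Δ kidneys, against 8.93, 8.80 and 8.76 in mixed controls. It read 8.63, 8.68 and 8.87 in AZIP kidneys, against 8.68, 8.68 and 8.58 in FVB controls. The groups overlapped in both lines, with differences of -0.08 ± 0.08 (limma adjusted p = 0.637) in PpargΔ/Δ and 0.08 ± 0.08 (limma adjusted p = 0.678) in AZIP kidneys.

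Slc2a4 encodes GLUT4, which insulin moves to the surface of fat and muscle cells. It read 9.38, 9.13 and 9.17 in PpargΔ/Δ kidneys, against 9.04, 9.12 and 8.99 in mixed controls. The arrays did not overlap, by a narrow gap, and the difference of 0.18 ± 0.07 did not pass (limma adjusted p = 0.144, unadjusted p = 0.0186). It read 9.30, 9.31 and 9.21 in AZIP kidneys, against 9.27, 9.23 and 9.20 in FVB controls, groups that overlapped with a difference of 0.04 ± 0.07 (limma adjusted p = 0.828). Skeletal muscle markers had 0 of 10 called by limma in either line, with 1 and 0 at an unadjusted p under 0.05. Of 9 fat markers 1, the lipase Lipe (-0.59), was lower in PpargΔ/Δ kidneys, and their array means were 6.47 to 6.5, against 6.61 to 6.79 in mixed controls. In AZIP kidneys 0 of 9 fat markers were called by limma, with 2 at an unadjusted p under 0.05.

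Slc2a3 encodes GLUT3. It read 6.34, 6.15 and 6.31 in PpargΔ/Δ kidneys, against 6.19, 6.18 and 6.27 in mixed controls. It read 6.31, 6.23 and 6.28 in AZIP kidneys, against 6.15, 6.25 and 6.11 in FVB controls. The groups overlapped in both lines, with differences of 0.05 ± 0.06 (limma adjusted p = 0.677) and 0.10 ± 0.06 (limma adjusted p = 0.449).

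**Figure D2:**
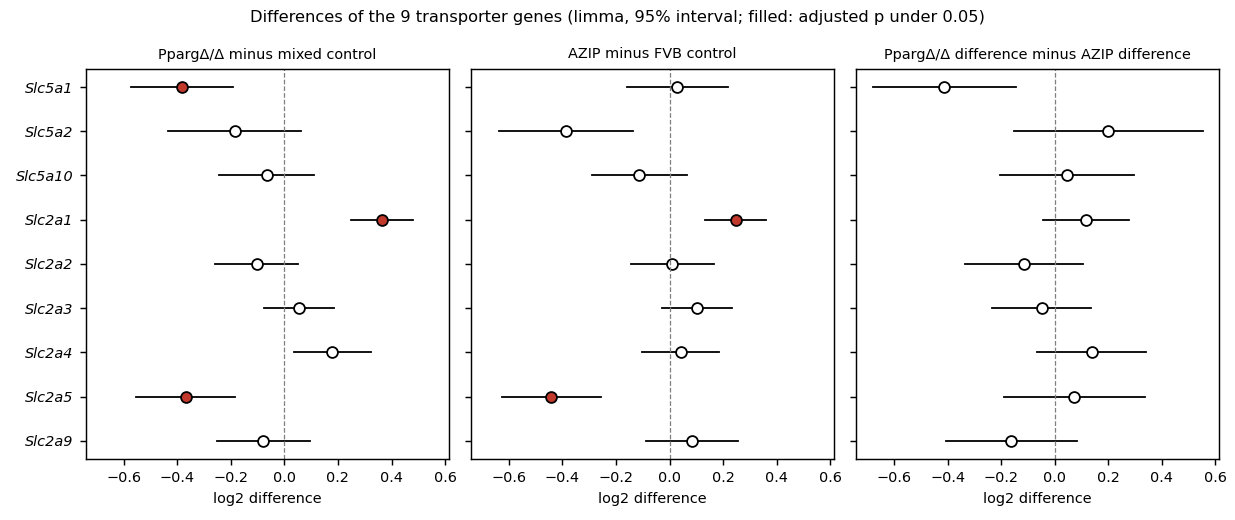
Log2 difference of each transporter with its 95% interval from limma, for PpargΔ/Δ minus mixed control, AZIP minus FVB control, and the first minus the second. Filled points passed an adjusted p of 0.05: 3 in PpargΔ/Δ, 2 in AZIP and 0 in the third panel.

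Whether a transporter responded differently in the 2 mutants was tested as the PpargΔ/Δ difference minus the AZIP difference. By limma 0 of the 9 passed, against 0.0201% of all genes (0.01% in each direction). Against 1160 of all 19938 genes, 1 of the 9 was at an unadjusted p under 0.05. That one was Slc5a1, at -0.41 ± 0.12 (limma adjusted p = 0.668, unadjusted p = 0.00591), so its fall is not shown to belong to PpargΔ/Δ alone. For Slc2a1 the value was 0.12 ± 0.07 with an interval of -0.05 to 0.28 (limma adjusted p = 0.892). For Slc2a5 it was 0.07 ± 0.12 with an interval of -0.19 to 0.34 (limma adjusted p = 0.960). For Slc5a2, the member with the largest AZIP difference short of the threshold, it was 0.20 ± 0.16 (limma adjusted p = 0.922).

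The mutants stood on different backgrounds, and the controls were set against each other as FVB control minus mixed control. This comparison shares its arrays with both mutant comparisons. By limma 0 of the 9 transporters passed, against 7.22% of all genes (3.5% higher and 3.72% lower). At an unadjusted p under 0.05 were 5 of the 9, against 3935 of all 19938 genes. The arrays did not overlap for 4 of 9, against 28.5% of all genes. Slc5a2 was at 0.28 ± 0.11 (limma adjusted p = 0.191), Slc5a10 at 0.26 ± 0.08 (limma adjusted p = 0.0814) and Slc2a5 at 0.25 ± 0.08 (limma adjusted p = 0.114). Slc2a4 was at 0.19 ± 0.07 (limma adjusted p = 0.127) and Slc2a9 at -0.19 ± 0.08 (limma adjusted p = 0.211). Slc2a1 was nearly level in the controls, at 0.01 ± 0.05 with an interval of -0.10 to 0.13 (limma adjusted p = 0.931). Slc5a2 passed with only these groups in the fit (limma adjusted p = 0.0456), and Slc5a10 with a variance trend (limma adjusted p = 0.0433) or without FVB control 3 (limma adjusted p = 0.0226). Slc5a10 also passed with the replicate number as a block (limma adjusted p = 0.0345), Slc2a5 without FVB control 3 (limma adjusted p = 0.0394) and Slc2a4 without PpargΔ/Δ 1, which enters only through the spread (limma adjusted p = 0.0447).

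Ordered by group mean, Slc2a1 ran from PpargΔ/Δ (11.37) over AZIP (11.27) and FVB control (11.02) to mixed control (11.01). Of its neighbours, AZIP and FVB control differed beyond their spread, as given above. PpargΔ/Δ and AZIP arrays did not overlap, but that difference of 0.10 did not pass (limma adjusted p = 0.249). Slc2a5 ran the other way, from FVB control (10.59) over mixed control (10.34) and AZIP (10.15) to PpargΔ/Δ (9.97), and none of its neighbours in that order passed (limma adjusted p of 0.114 to 0.234). Slc5a1 lay at 10.64 in mixed control, 10.59 in AZIP and 10.56 in FVB control, which overlapped, and at 10.26 in PpargΔ/Δ, below FVB control by 0.30 (limma adjusted p = 0.0313). Slc5a2 was highest in FVB control (12.04), then mixed control (11.76), AZIP (11.66) and PpargΔ/Δ (11.58), with no neighbours past the threshold (limma adjusted p of 0.191 to 0.709). Slc5a10 was at 11.69 in FVB control, 11.57 in AZIP, 11.43 in mixed control and 11.36 in PpargΔ/Δ, again with none past it (limma adjusted p of 0.281 to 0.710). For Slc2a2, Slc2a3, Slc2a4 and Slc2a9 neighbouring groups overlapped, except that Slc2a4 in PpargΔ/Δ stood clear of mixed control, and none passed by limma, with adjusted p from 0.144 to 0.970.

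After the mean of each background was subtracted from its 6 arrays, members were set against each other over the 12 arrays, as a description. Among 36 pairs the strongest were Slc2a2 with Slc2a4 (Pearson r = -0.88) and Slc2a1 with Slc2a5 (Pearson r = -0.86), followed by Slc5a2 with Slc2a5 (0.76) and Slc5a2 with Slc2a1 (-0.73). With each group's own mean removed as well, r was -0.14 for Slc2a1 with Slc2a5 0.33 for Slc5a2 with Slc2a5, -0.55 for Slc5a2 with Slc2a1 and -0.91 for Slc2a2 with Slc2a4. The next strongest pair within groups was Slc5a1 with Slc2a9, at 0.79, against 0.67 before the group means were removed. The GLUT2 and GLUT4 genes ran opposite to each other within the groups: PpargΔ/Δ 1 was lowest of its group in Slc2a2 and highest in Slc2a4. These points share arrays, RNA pools and normalization.

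The genes whose centred pattern over the 12 arrays was most like that of each called member were found among all genes tested. Mutant and control differences are part of that likeness, so the differences of the genes found describe the choice and are no independent result. For Slc2a1 they were Usp54 (Pearson r = 0.97), a member of the ubiquitin protease family, Cuedc1 (0.96) and Pcbp3 (0.96), an RNA-binding protein. Usp54 was at 0.30 in PpargΔ/Δ and 0.22 in AZIP kidneys, and Pcbp3 at 0.38 and 0.30. Cuedc1 was at 0.20 in PpargΔ/Δ and 0.16 in AZIP kidneys. For Slc2a5 they were Aldh9a1 (0.98), an aldehyde dehydrogenase of carnitine synthesis, the protocadherin Pcdh17 (0.96) and Sel1l3 (0.96). Aldh9a1 was at -0.19 in both mutants. Pcdh17 was at -0.39 in PpargΔ/Δ and -0.54 in AZIP kidneys, and Sel1l3 at -0.37 and -0.42. For Slc5a1 they were Pdxk, the pyridoxal kinase (0.96), the histone demethylase Kdm5c (0.94) and Trappc12 (0.93), whose differences in PpargΔ/Δ kidneys were -0.15, -0.09 and -0.11.

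Of 16 other members of the SLC2 and SLC5 families, 1 was lower and 0 higher in PpargΔ/Δ kidneys, against 2.62% and 2.67% of all genes. The median over the 16 was -0.06. It was Slc2a12 (GLUT12), at -0.20 ± 0.05 (limma adjusted p = 0.0469). The alternatives run for the transporters above were not run for this or any other list gene. Slc2a12 read 8.69, 8.79 and 8.71 in PpargΔ/Δ kidneys, against 8.97, 8.99 and 8.85 in mixed controls. In AZIP kidneys 0 of 16 were called by limma, with 2 at an unadjusted p under 0.05 and a median of 0.00, and Slc2a12 was at -0.17 ± 0.05 (limma adjusted p = 0.118). Of 7 measured partners and regulators of the SGLT carriers, 1 was lower in PpargΔ/Δ kidneys, against 2.62% of all genes, and 0 were called by limma in AZIP kidneys. At an unadjusted p under 0.05 were 2 of the 7 in PpargΔ/Δ and 4 in AZIP kidneys, against 4069 and 3267 of all 19938 genes. Those 4 all lay below 0, at -0.17 to -0.13. The one called in PpargΔ/Δ kidneys was Pdzk1 (-0.26 ± 0.05, limma adjusted p = 0.0165), a scaffold that holds transporters in the luminal membrane. Pdzk1ip1, which encodes MAP17, the partner that SGLT2 needs for activity and a gene outside the rule for naming, was at -0.01 in PpargΔ/Δ (limma adjusted p = 0.947) and -0.07 in AZIP kidneys (limma adjusted p = 0.485).

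Of 12 measured genes of GLUT traffic and control, 1 was higher and 2 lower in PpargΔ/Δ kidneys, against 2.67% and 2.62% of all genes. The median over the 12 was 0.01. The arrestins Txnip and Arrdc4, which are induced by glucose and hold back glucose uptake, were the lower ones. Arrdc4 read 8.62, 8.55 and 8.54 in PpargΔ/Δ kidneys, against 9.02, 9.07 and 8.94 in mixed controls, with no overlap and a value of -0.44 ± 0.07 (limma adjusted p = 0.00461). In AZIP kidneys it read 8.63, 8.56 and 8.82, against 9.04, 8.94 and 8.94 in FVB controls, a difference of -0.30 ± 0.07 (limma adjusted p = 0.0392) and the 1 of 12 genes called there. Txnip was lower, at -0.34 ± 0.08 in PpargΔ/Δ kidneys (limma adjusted p = 0.0308) and was at -0.15 ± 0.08 in AZIP kidneys (limma adjusted p = 0.371). The Rab regulator Tbc1d1 rose by 0.21 ± 0.05 in PpargΔ/Δ kidneys (limma adjusted p = 0.0380) and was at 0.11 in AZIP kidneys (limma adjusted p = 0.335).

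**Figure D3:**
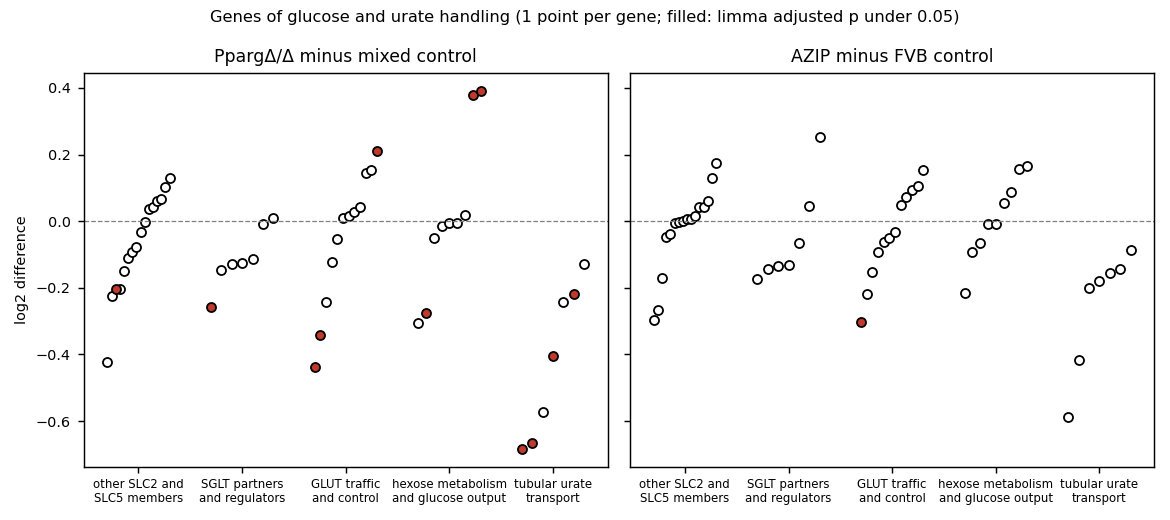
Log2 difference of each measured gene of 5 lists around the transporters, 1 point per gene, for PpargΔ/Δ minus mixed control and AZIP minus FVB control. Filled points passed a limma adjusted p of 0.05. All 7 urate transport genes lie below 0 in both panels, with 4 filled on the left and 0 on the right, where Arrdc4 is the 1 filled point.

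Measured were 9 genes for the first steps of hexose use and for glucose output. Of these, 2 were higher and 1 lower in PpargΔ/Δ kidneys, against 2.67% and 2.62% of all genes. In AZIP kidneys 0 were called by limma, with 2 at an unadjusted p under 0.05. Hexokinase 2, Hk2 (0.39 ± 0.07, limma adjusted p = 0.00858), and glucose-6-phosphatase, G6pc (0.38 ± 0.07, limma adjusted p = 0.0102), were higher. Hk2 read low, at 6.32, 6.20 and 6.25 in PpargΔ/Δ kidneys, against 5.81, 5.95 and 5.85 in mixed controls, with no call of detection. G6pc was also higher in FVB than in mixed controls (0.30 ± 0.07, limma adjusted p = 0.0186). The fructokinase Khk, which acts on the fructose that GLUT5 brings in, was lower in PpargΔ/Δ kidneys (-0.28 ± 0.07, limma adjusted p = 0.0438). In AZIP kidneys Khk was at -0.22 ± 0.07 (limma adjusted p = 0.132). Of 7 tubular urate transport genes 4 were lower in PpargΔ/Δ kidneys, against 2.62% of all genes. The median over the 7 was -0.40, beside -0.08 for Slc2a9. The 4 were Slc22a12 (-0.67 ± 0.14), Slc17a3 (-0.68 ± 0.15), Slc22a13 (-0.40 ± 0.10) and Slc17a1 (-0.22 ± 0.05), with a limma adjusted p of up to 0.0363. In AZIP kidneys 0 of 7 were called by limma, with 4 at an unadjusted p under 0.05 and a median of -0.18. All 7 values were below 0 in both lines, while 9338 of all 19938 genes were above 0 in PpargΔ/Δ and 10183 in AZIP kidneys. Slc22a13 also stands in the list of S3 markers, whose array means were 9.95 to 10.20 in PpargΔ/Δ, against 10.27 to 10.54 in mixed controls, and 10.06 to 10.36 in AZIP, against 10.58 to 10.75 in FVB controls. Slc22a6 stands likewise in the list of early proximal tubule markers. It was at -0.57 ± 0.17 (limma adjusted p = 0.0688) in PpargΔ/Δ and -0.16 ± 0.17 (limma adjusted p = 0.718) in AZIP kidneys. The part of these segments in the urate genes' values was not tested.

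**Figure D4:**
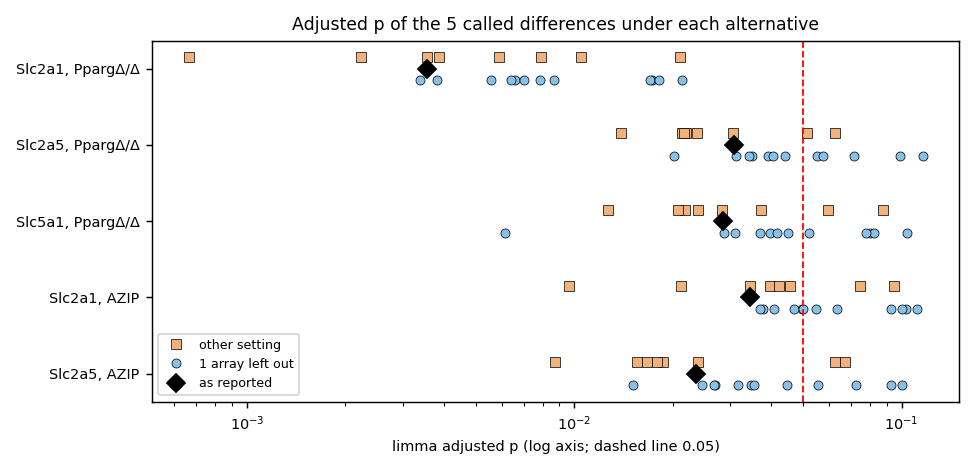
Limma adjusted p of the 5 called transporter differences as reported (diamond), with 1 array left out (circles) and under the other settings (squares), on a log axis. Slc2a1 in PpargΔ/Δ kidneys stays left of 0.05 throughout, and the other 4 differences have points on both sides.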

How the data were processed

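Expression was measured on 12 Affymetrix arrays of whole-kidney RNA, 3 per group. The deposited log2 values come from the authors' RMA run, and Affymetrix Expression Console is the program named, per the submitters' processing notes. The sources used here do not give versions, settings or the array's genome build. The values were used as deposited, with array medians of 7.17 to 7.21.

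Of 35556 probe sets 21789 had 1 gene symbol, 1621 several and 12146 none in GEO's platform annotation. Current symbols were found through the Entrez number for 21698. Where several probe sets named a gene (999 genes), the probe set of highest mean stood for it, giving 19938 genes. Limma 3.58.1 (R 4.3.3) estimated a mean for each of the 4 groups from the 12 arrays together, leaving 8 residual degrees of freedom, with Benjamini and Hochberg adjustment over all genes. The fit was tested on simulated data. The number of arrays limits the precision, and the median SE of a difference was 0.0698.

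The members, gene lists and rules were chosen with earlier results of these data known. Named are the 9 members, Pparg, up to 4 genes past the threshold per list and mutant comparison, and the 3 genes most like each called member. Marker genes, Xist, the Y-linked genes and Pdzk1ip1 were named outside that rule. Alternatives were 2 other normalizations, a filter at percentile 25 of mean expression, which kept all 9 members, other handling of probe sets, a fit to the compared groups alone, a mean-variance trend, the replicate number as a block, and each array left out. They were run for the 9 members and the counts of called genes, not for single genes of the lists.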

Additional observations from a re-analysis of the deposited data

How the results depend on the processing

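The rise of Slc2a1 in PpargΔ/Δ kidneys passed under all 20 alternatives run. Renormalization, the percentile filter, averaging probe sets, the variance trend and the block kept the other 4 called transporter differences past the threshold. With all probe sets tested the values were the same and the limma adjusted p were 0.0597 for Slc5a1 (-0.38) and 0.0627 for Slc2a5 (-0.37) in PpargΔ/Δ, and 0.0746 for Slc2a1 (0.25) and 0.0627 for Slc2a5 (-0.44) in AZIP kidneys. More features were tested and the SE also rose (Slc5a1 to 0.0903, against 0.0868), and these were not separated. With only the groups compared they were 0.0879, 0.0514, 0.0950 and 0.0673, in fits with fewer arrays. Either setting left 1 called transporter in PpargΔ/Δ and 0 in AZIP kidneys. Genes called in AZIP kidneys then numbered 176 with all probe sets, 162 with only the groups compared and 785 with a variance trend, against 485, and genes called in PpargΔ/Δ kidneys 607 with only the groups compared, against 1055. Equal array medians made the split 436 higher and 694 lower in PpargΔ/Δ kidneys, against 532 and 523, and 203 higher and 326 lower in AZIP kidneys, against 260 and 225.

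With 1 array left out, called genes ranged from 330 to 1220 in PpargΔ/Δ, 62 to 606 in AZIP, 852 to 1596 between the controls and 0 to 9 for the difference of the 2 mutant effects (4 as reported, 0 with all probe sets), and called transporters from 1 to 3, 0 to 2, 0 to 2 and 0 to 0. Slc5a1 ranged from -0.48 to -0.29 and Slc2a5 from -0.43 to -0.31 in PpargΔ/Δ, and Slc2a1 from 0.21 to 0.28 and Slc2a5 from -0.53 to -0.37 in AZIP kidneys. Values near 0 that changed sign, none of them called, were Slc5a1 (-0.016 to 0.074) and Slc2a2 (-0.036 to 0.046, and -0.012 with equal medians) in AZIP kidneys, Slc2a1 (-0.016 to 0.056) and Slc2a2 (-0.063 to 0.010) between the controls, and Slc5a10 (-0.027 to 0.134) and Slc2a3 (-0.090 to 0.0091) for the difference of effects. The cause of these changes was not tested. Between the controls 1 transporter passed with only the groups compared (Slc5a2), 1 with a trend and 1 with the replicate block (Slc5a10), and with 1 array left out Slc2a4 (without PpargΔ/Δ 1) and Slc5a10 and Slc2a5 (without FVB control 3).

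Replicate numbers were not used to pair the samples, and 3 arrays per group cannot settle whether they were paired. Same-numbered arrays deviated together at r = 0.18, 0.18 and 0.01 in the PpargΔ/Δ comparison and -0.04, -0.10 and -0.01 in the AZIP comparison. PpargΔ/Δ 1 and 2 correlated best with the mixed control of their own number, and PpargΔ/Δ 3 with mixed control 2. No AZIP array correlated best with the FVB control of its own number. With the replicate block called genes numbered 1102 in PpargΔ/Δ, 694 in AZIP and 1 for the difference of effects. It changed no call of a transporter in either mutant (Slc2a1 limma adjusted p = 0.00793 and 0.0456).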
